A study of Mus musculus with 7 samples.

Results

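Retinoic acid is a signal made inside the testis from vitamin A. A total of 9 mouse genes that supply it, break it down or respond to it were examined: Stra6 for uptake, Rdh10, Rdh11, Aldh1a1 and Aldh1a2 for synthesis, Cyp26b1 for breakdown, and Crabp1, Rarg and Stra8 for response. They were chosen by symbol and grouped by role, and all 9 were among the 18194 genes tested. RNA from whole testis of Phf13 knockout mice (3 arrays) and wild type mice (4 arrays), aged 15 to 20 weeks, had been hybridised to Affymetrix expression arrays. Phf13 encodes a chromatin-binding protein with a PHD finger. How the gene was disrupted, the strain of the mice, and whether each array came from its own animal are not given in the sources used here. The p-values below therefore measure the spread between arrays, which may be partly technical.

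Retinol reaches cells bound to a carrier protein and can enter through the receptor STRA6. Retinol dehydrogenases such as RDH10 turn it into retinal, and aldehyde dehydrogenases of the ALDH1A family turn retinal into retinoic acid. CYP26B1 inactivates retinoic acid, CRABP1 binds it in the cytoplasm, and receptors such as RARG carry its signal to DNA in partnership with the RXR proteins. In the mouse testis, retinoic acid drives spermatogonial differentiation and the entry into meiosis, for which Stra8 is required. Sertoli cells and germ cells both make retinoic acid, and peritubular myoid cells express Cyp26b1.

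Each value is the authors' deposited log2 signal of a probe set, so a difference of 1 is a doubling, and each gene was read at its brightest probe set. Phf13 itself had log2 signals of 6.04, 5.83 and 5.71 on the knockout arrays, against 8.66, 8.64, 8.73 and 8.54 on the wild type arrays, so the targeted gene went with the labels. Array medians lay between 5.01 and 5.08. All 9 spermatid markers examined, among them Prm1, Tnp1 and Acrv1, were brighter on average than the median gene, as were 11 of 15 Sertoli cell markers. Array titles open with a number whose meaning is not stated, and by its first 4 digits the arrays fall into 3 title sets, each with both genotypes. The first set holds knockout 1 and wild type 1, the next knockout 2 and wild types 2 and 3, and the last knockout 3 and wild type 4. Differences within them are given beside each member.

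Aldh1a1 and Cyp26b1 were higher in knockout testis, and Stra6 and Rdh11 were lower. The other members, Rdh10, Aldh1a2, Crabp1, Rarg and Stra8, did not pass the test. The test was limma across all genes, with Benjamini-Hochberg adjustment over all 18194 and a threshold of 0.05 on the adjusted p. Of the 9 members, 2 rose, 2 fell and 5 did not pass, while 16.1% of all genes tested passed (9.07% higher and 7.05% lower in knockout). With each array centred on the median of the tested genes, the calls over all genes split into 1635 higher and 2042 lower, in place of 1651 higher and 1283 lower. The median log2 fold change of the members was −0.04, against −0.05 for all genes tested. The genotypes did not overlap for 4 of the 9 members, which were those past the test, and for 28.0% of all genes. With 1 array left out, 1 or 2 members rose and 0 to 2 fell; without knockout 3, when 175 of all genes passed, Aldh1a1 was the only member that did.

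**Figure D1:**
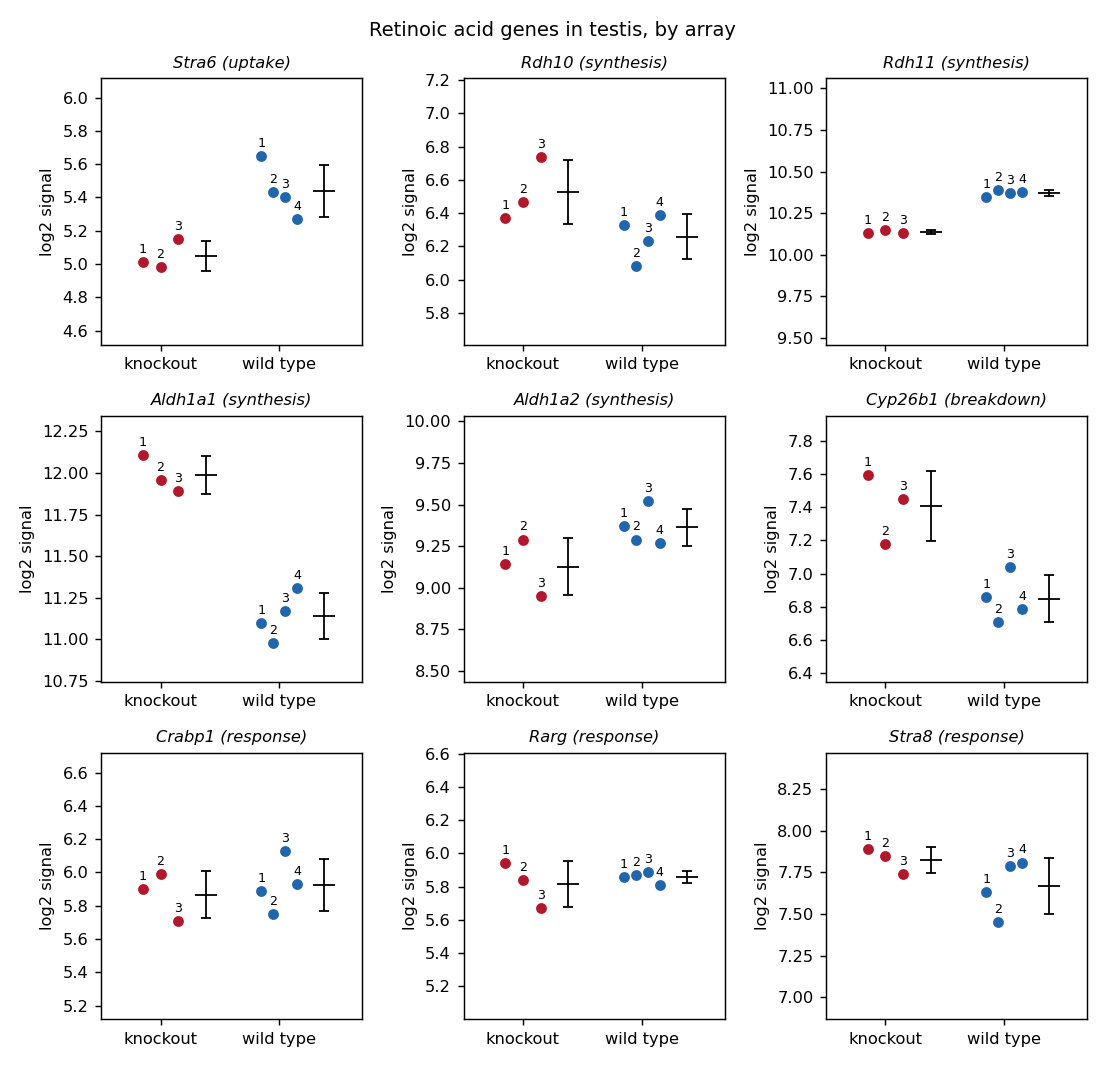
Log2 signal (y axis) of the 9 members in each knockout array (red, left) and wild type array (blue, right), numbered by replicate, with the group mean and SD in black. Every panel spans the same range of log2 units. The knockout arrays lie wholly above the wild type arrays for Aldh1a1 and Cyp26b1 and wholly below them for Stra6 and Rdh11.

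Uptake was represented by Stra6, the membrane receptor for retinol-binding protein. Stra6 had log2 signals of 5.01, 4.98 and 5.15 on the knockout arrays, against 5.65, 5.43, 5.40 and 5.27 on the wild type arrays. All knockout arrays were below all wild type arrays, and the narrowest gap was between knockout 3 and wild type 4. The mean was 5.05 ± 0.09 (SD, n = 3) in the knockouts and 5.44 ± 0.16 (SD, n = 4) in the wild types, and Stra6 fell by 0.39 on the log2 scale (SE 0.09, limma adjusted p = 0.0298), or 1.31-fold. The exact two-sided permutation p for Stra6 was 0.0571, above the 0.05 threshold although the groups did not overlap. Its signal stood at percentile 30.9 of all genes in the knockouts and 36.7 in the wild types. Whether so dim a signal exceeds background is not known, which leaves the size of this fall uncertain. Within the title sets the difference was −0.64, −0.44 and −0.12. The call was lost without knockout 1 (limma adjusted p = 0.0889), knockout 2 (0.0747), knockout 3 (0.0629), wild type 1 (0.0637) or wild type 2 (0.0686).

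Rdh10 encodes the main enzyme that oxidises retinol to retinal in the mouse embryo. Its log2 signals were 6.37, 6.47 and 6.74 on the knockout arrays and 6.33, 6.08, 6.23 and 6.39 on the wild type arrays. Knockout 1 lay between wild type 1 and wild type 4, so the groups overlapped. The log2 fold change was 0.27 with an SE of 0.11 (limma adjusted p = 0.120), with a 95% interval of 0.02 to 0.51 before adjustment for the number of genes. A second, dimmer probe set of Rdh10 gave 0.24 (SE 0.09). Without knockout 3 the log2 fold change was 0.16. Within the title sets the difference was 0.04, 0.32 and 0.35.

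Rdh11 encodes a retinal reductase that can also oxidise retinol, and its change on the brightest probe set was small but alike across the arrays. The log2 signals were 10.13, 10.15 and 10.13 on the knockout arrays, against 10.35, 10.39, 10.37 and 10.38 on the wild type arrays. The groups were apart, and the arrays of each genotype lay close together. Rdh11 fell by 0.24 on the log2 scale (SE 0.05, limma adjusted p = 0.0237), or 1.18-fold, and the exact two-sided permutation p was 0.0286. The differences within the title sets were −0.22, −0.23 and −0.25. Its other probe set, almost as bright, had 10.09, 9.94 and 9.85 on the knockout arrays and 10.05, 10.06, 10.15 and 10.23 on the wild type arrays, where knockout 1 lay among the wild type arrays. That probe set had a log2 fold change of −0.16 (SE 0.08, limma adjusted p = 0.235 over all probe sets). At the brightest probe set the log2 fold change was −0.15 with quantile normalization and −0.28 with median centring. The call there was lost with the title sets as a block (limma adjusted p = 0.0502), with replicate numbers as a block (0.0845) and with quantile normalization (0.0841). It was also lost without knockout 1 (limma adjusted p = 0.0641), knockout 3 (0.0701), wild type 1 (0.0611) or wild type 2 (0.0537).

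Aldh1a1, which encodes a retinal dehydrogenase, had the largest fold change of the 9 members. The log2 signals were 12.11, 11.96 and 11.89 on the knockout arrays, against 11.10, 10.98, 11.17 and 11.31 on the wild type arrays. The lowest knockout array was well above the highest wild type array. The mean was 11.99 ± 0.11 (SD, n = 3) in the knockouts and 11.14 ± 0.14 (SD, n = 4) in the wild types. Aldh1a1 rose by 0.85 on the log2 scale (SE 0.09, limma adjusted p = 0.00832), a level 1.80-fold higher, with a 95% interval of 0.64 to 1.06. The exact two-sided permutation p was 0.0286, which is the lowest value that 35 divisions of the arrays permit. Within the title sets the difference was 1.01, 0.89 and 0.58. Aldh1a1 kept its call in each of 7 runs that left out 1 array (limma adjusted p 0.0114 to 0.0389). Without knockout 3 and wild type 4 together its log2 fold change was 0.95 with limma adjusted p = 0.0604, and in that setting 4 genes passed in all.

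Aldh1a2 encodes a retinal dehydrogenase of the same family that mouse germ cells express. Its log2 signals were 9.14, 9.29 and 8.95 on the knockout arrays and 9.37, 9.29, 9.52 and 9.27 on the wild type arrays. Knockout 2 equalled wild type 2 and was just above wild type 4, and the other knockout arrays were below every wild type array. Aldh1a2 had a log2 fold change of −0.24 (SE 0.10, limma adjusted p = 0.129), with a 95% interval of −0.46 to −0.01 before adjustment. The differences within the title sets were −0.23, −0.12 and −0.32, and without knockout 3 the log2 fold change was −0.15. Fewer cells of a type and less RNA per cell cannot be told apart in whole tissue.

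Breakdown was represented by Cyp26b1, a cytochrome P450 that clears retinoic acid. The log2 signals were 7.59, 7.18 and 7.45 on the knockout arrays, against 6.86, 6.71, 7.04 and 6.79 on the wild type arrays. The groups did not overlap, and knockout 2 came closest to the wild type range. The mean was 7.41 ± 0.21 (SD, n = 3) in the knockouts and 6.85 ± 0.14 (SD, n = 4) in the wild types. Cyp26b1 rose by 0.56 on the log2 scale (SE 0.11, limma adjusted p = 0.0186), a level 1.47-fold higher, and the exact two-sided permutation p was 0.0286. Within the title sets the difference was 0.73, 0.31 and 0.66. The call was lost without knockout 1 (limma adjusted p = 0.0610), knockout 3 (0.0686) or wild type 1 (0.0562). Cyp26a1, a gene of the same enzyme family, was dim and had a log2 fold change of −0.06 (SE 0.06, limma adjusted p = 0.514).

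**Figure D2:**
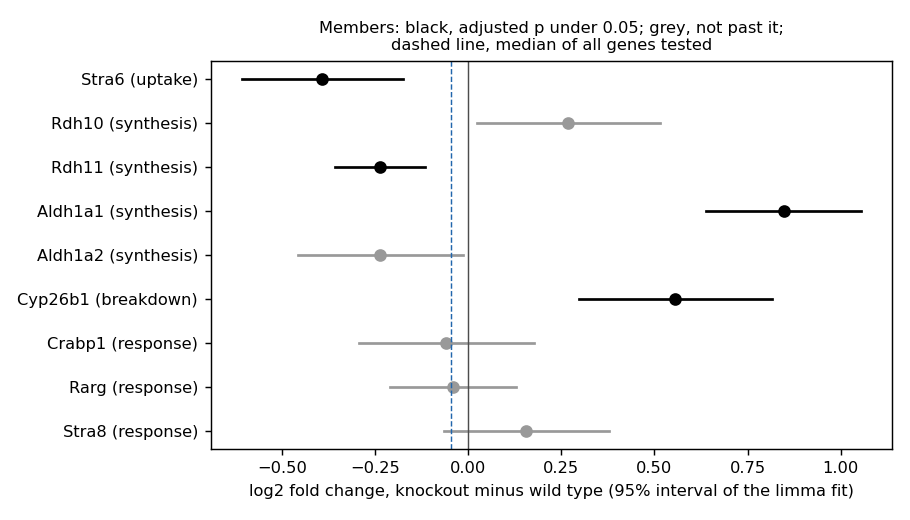
Log2 fold change, knockout minus wild type (x axis), of each member with the 95% interval of the limma fit before adjustment. Black marks the 4 members past the adjusted threshold and grey the other 5, and the dashed line is the median of all genes tested, −0.05. Aldh1a1 (0.85) and Cyp26b1 (0.56) lie right of 0 and Stra6 (−0.39) and Rdh11 (−0.24) left of it.

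The promoter windows of the members were read from RefSeq (build GRCm38.p6), which gave 14 windows for 8 members, each from 250 bases before to 50 bases after a transcript start. None was listed for Rdh10. Both strands were searched for the retinoic acid response elements known as DR5 and DR2, which are direct repeats of a receptor-binding hexamer, and for the hexamer AGGTCA. Of the 14 windows, 0 held a DR5 or a DR2 and 3 held AGGTCA. Over 32851 windows of that length in the table, 0.0974% held a DR5, 0.268% a DR2 and 16.3% AGGTCA. A window without a match says only that these letters are not in it. The windows of the 2 members that rose are printed to show the sequence upstream of them, and those of Rdh11, Rarg and Stra8 because they hold AGGTCA or its complement, in capitals. Each is given 5′ to 3′ on the strand of its gene, and Aldh1a1, Rdh11 and Rarg have a further window that is not shown.
Aldh1a1, chr19:20601718-20602017, plus strand: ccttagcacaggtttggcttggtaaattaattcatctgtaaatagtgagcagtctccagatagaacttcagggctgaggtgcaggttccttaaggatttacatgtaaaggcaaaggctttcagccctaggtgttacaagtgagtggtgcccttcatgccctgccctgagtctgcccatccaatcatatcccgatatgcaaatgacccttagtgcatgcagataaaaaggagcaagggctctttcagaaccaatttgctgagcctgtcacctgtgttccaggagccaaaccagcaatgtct
Cyp26b1, chr6:84593761-84594060, minus strand: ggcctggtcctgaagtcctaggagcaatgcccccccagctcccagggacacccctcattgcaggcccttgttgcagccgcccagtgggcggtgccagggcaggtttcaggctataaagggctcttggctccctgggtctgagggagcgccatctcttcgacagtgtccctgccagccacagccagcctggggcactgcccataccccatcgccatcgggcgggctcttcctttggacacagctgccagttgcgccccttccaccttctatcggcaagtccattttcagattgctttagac
Rdh11, chr12:79190912-79191211, minus strand: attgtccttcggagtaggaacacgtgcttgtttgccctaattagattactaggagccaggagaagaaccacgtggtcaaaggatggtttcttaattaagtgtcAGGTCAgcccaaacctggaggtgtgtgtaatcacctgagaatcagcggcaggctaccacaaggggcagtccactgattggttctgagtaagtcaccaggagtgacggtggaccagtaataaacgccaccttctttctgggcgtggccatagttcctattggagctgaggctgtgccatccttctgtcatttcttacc
Rarg, chr15:102257473-102257772, minus strand: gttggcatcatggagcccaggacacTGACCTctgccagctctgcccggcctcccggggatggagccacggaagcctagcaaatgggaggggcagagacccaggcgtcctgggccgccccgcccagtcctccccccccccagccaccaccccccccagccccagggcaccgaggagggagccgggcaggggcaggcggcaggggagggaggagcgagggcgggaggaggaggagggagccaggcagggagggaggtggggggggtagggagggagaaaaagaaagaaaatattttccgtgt
Stra8, chr6:34920698-34920997, plus strand: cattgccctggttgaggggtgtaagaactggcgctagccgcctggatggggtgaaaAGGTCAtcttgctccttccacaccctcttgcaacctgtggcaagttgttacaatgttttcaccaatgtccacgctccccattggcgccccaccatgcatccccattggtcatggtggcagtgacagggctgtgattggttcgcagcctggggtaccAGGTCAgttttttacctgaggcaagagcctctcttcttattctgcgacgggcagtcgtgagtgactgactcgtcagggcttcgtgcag

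The Stra8 window held AGGTCA at 2 positions, the Rdh11 window at 1, and the Rarg window held it once on the opposite strand, printed as TGACCT. Of these 3 genes, Rdh11 fell and the other two did not pass the test.

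Crabp1, whose product binds retinoic acid in the cytoplasm and is known in mouse spermatogonia, did not separate the genotypes. Its log2 signals were 5.90, 5.99 and 5.71 on the knockout arrays and 5.89, 5.75, 6.13 and 5.93 on the wild type arrays. The lowest array was a knockout and the highest a wild type, with the others mixed. Crabp1 had a log2 fold change of −0.06 (SE 0.10, limma adjusted p = 0.720), with a 95% interval of −0.29 to 0.18. Within the title sets the difference was 0.01, 0.05 and −0.22. The log2 fold change was 0.02 without knockout 3 and 0.01 without wild type 3, so its sign rested on single arrays.

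Rarg, the receptor gene of the set, did not separate the genotypes either. The log2 signals were 5.94, 5.84 and 5.67 on the knockout arrays and 5.86, 5.87, 5.89 and 5.81 on the wild type arrays. The wild type values lay within the wider range of the knockout values. Rarg had a log2 fold change of −0.04 (SE 0.07, limma adjusted p = 0.727), with a 95% interval of −0.21 to 0.13, and a second probe set gave −0.04 (SE 0.08). In the title sets the difference was 0.08, −0.04 and −0.14, and without knockout 3 the log2 fold change was 0.03. Crabp1 and Rarg were both dimmer on average than the median gene, and whether they exceed background is not known.

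Stra8, which retinoic acid induces in germ cells before meiosis, had log2 signals of 7.89, 7.85 and 7.74 on the knockout arrays and 7.63, 7.45, 7.79 and 7.81 on the wild type arrays. Knockout 1 and 2 were the highest arrays, while knockout 3 was below wild type 3 and 4. The log2 fold change was 0.16 with an SE of 0.10 (limma adjusted p = 0.288), and the 95% interval ran from −0.06 to 0.38. Without wild type 2 the log2 fold change was 0.08. The difference was 0.26 and 0.23 in the title sets of knockout 1 and 2, and −0.07 in that of knockout 3.

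**Figure D3:**
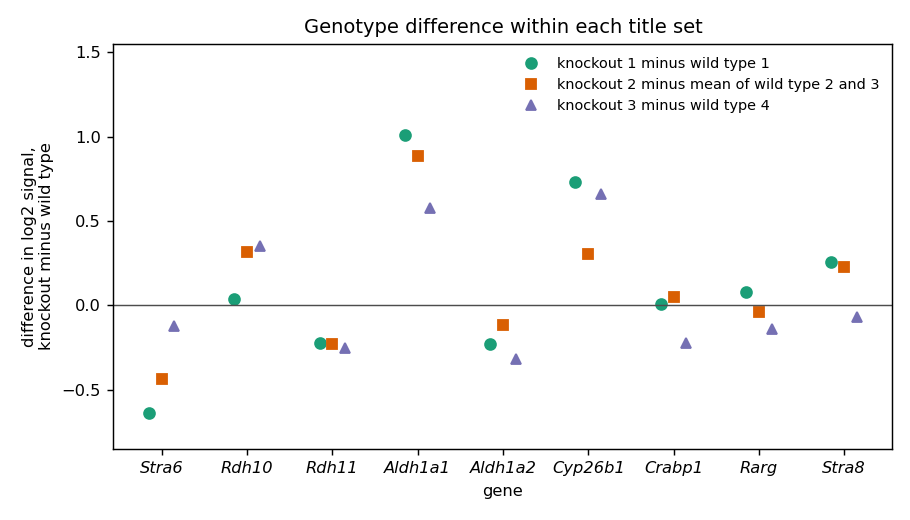
Difference in log2 signal, knockout minus wild type (y axis), of each member within the 3 title sets, 1 symbol per group. The 4 members past the test had 1 sign in all 3 groups, which had to be so because their genotypes were fully apart. Among the other 5, whose genotypes overlapped, Rdh10 and Aldh1a2 also kept 1 sign, and Crabp1, Rarg and Stra8 did not.

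The other genes of the retinoid pathway were taken from 6 lists, of which 47 of 54 listed genes were tested and the other 7 were not analysed here. Of these 47, 9 rose, 2 fell and 36 did not pass, which is to be read against the 9.07% and 7.05% of all genes. Their median log2 fold change was −0.01. The 11 that passed had 1 sign in all 3 title sets, the smallest difference being 0.03 for Sohlh2. For all of them except Adh1 this had to be so, because their genotypes were fully apart. It therefore adds no support for those genes. Only 19 of the 47 were brighter on average than the median gene, so for most of them a lack of change says little. Several of the dimmest genes repeated 1 value across arrays, such as Rdh12, listed at 3.73 in 6 of them.

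Among 7 genes of uptake and storage, 0 rose, 1 fell and 6 did not pass. The 1 was Bco1, which encodes the enzyme that cleaves beta-carotene into retinal. Bco1 had log2 signals of 8.10, 8.21 and 8.10 on the knockout arrays, against 8.64, 8.89, 8.48 and 8.77 on the wild type arrays. The groups were apart, and Bco1 fell by 0.56 on the log2 scale (SE 0.10, limma adjusted p = 0.0139), a call lost without knockout 3 (0.0574). Lrat, which esterifies retinol for storage, had a log2 fold change of 0.10 at its brightest probe set and −0.23 at its most variable one, neither past the test, and Rbp2 had −0.06 (0.01 without wild type 2).

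Of 18 further genes of retinol and retinal oxidation or reduction, 3 rose, 1 fell and 14 did not pass. The alcohol dehydrogenase gene Adh5, best known for clearing formaldehyde, had 9.66, 9.75 and 9.85 on the knockout arrays, against 8.69, 8.62, 9.07 and 9.17 on the wild type arrays. Those groups did not overlap, and Adh5 rose by 0.87 on the log2 scale (SE 0.14, limma adjusted p = 0.0122), a call lost without knockout 3 (0.0537). With the mean of all its probe sets the log2 fold change of Adh5 was 0.37 (limma adjusted p = 0.0169). Adh1, whose product oxidises retinol, had 8.86, 8.08 and 9.20 on the knockout arrays and 7.26, 7.20, 7.69 and 8.11 on the wild type arrays. Knockout 2 was just below wild type 4, so the groups overlapped, and Adh1 rose by 1.15 (SE 0.29, limma adjusted p = 0.0342) but kept its call in 2 of 7 runs that left out 1 array, those without knockout 2 or wild type 4 (range 0.0244 to 0.116). Rdh9 rose by 0.33 (SE 0.06, limma adjusted p = 0.0147, and 0.0555 without knockout 3) at log2 signals of 2.33 to 2.74, far below the array medians. Dhrs4, which encodes a retinal reductase, fell by 0.45 (SE 0.11, limma adjusted p = 0.0330). It kept its call in 1 of 7 such runs, that without knockout 2 (range 0.0228 to 0.109), and with the title sets as a block its adjusted p was 0.0577.

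Aldh1a3, which encodes the remaining retinal dehydrogenase of the ALDH1A family, was chosen for naming after its values were seen. It had 5.51, 5.25 and 6.0 on the knockout arrays and 5.03, 4.67, 4.80 and 5.25 on the wild type arrays. Knockout 2 and wild type 4 had the same signal, and the other knockout arrays were above all wild type arrays. Its log2 fold change was 0.65 with an SE of 0.19 (limma adjusted p = 0.0518), and with the title sets as a block it was 0.57 with limma adjusted p = 0.0233. It passed in 10 of 19 alternatives, with log2 fold changes of 0.34 to 0.82 over all 19. The lowest was with the mean of its probe sets, of which the other two were dimmer.

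Of 8 genes of binding proteins and receptors, 1 rose, 0 fell and 7 did not pass. Fabp5, which encodes a fatty acid binding protein that can also carry retinoic acid, had 9.34, 9.23 and 9.60 on the knockout arrays, against 7.97, 7.86, 8.38 and 8.54 on the wild type arrays. The groups were far apart, and Fabp5 rose by 1.20 (SE 0.17, limma adjusted p = 0.0116, and 0.0505 without knockout 3). The receptor genes Rxra (−0.30, SE 0.10, limma adjusted p = 0.0768) and Rxrg (−0.23, SE 0.07, 0.0605) did not pass, though Rxra did in 3 of 20 alternatives and Rxrg in 1 of 18. With the title sets as a block Rxra had 0.0269, and its log2 fold change was −0.12 with the mean of its probe sets.

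Of 4 coregulator genes of nuclear receptors, 2 rose, 0 fell and 2 did not pass. The coactivator gene Ncoa2 had 9.59, 9.51 and 9.76 on the knockout arrays, against 8.93, 8.71, 8.99 and 8.99 on the wild type arrays. The groups did not overlap, and Ncoa2 rose by 0.71 (SE 0.09, limma adjusted p = 0.0115) and kept its call in each of 7 runs that left out 1 array. With the mean of all its probe sets its log2 fold change was 0.31 (limma adjusted p = 0.0305). The corepressor gene Nrip1 rose by 0.61 (SE 0.15, limma adjusted p = 0.0312) but stayed past it in 2 of 7 runs, those without wild type 3 or wild type 4, and had 0.36 with the mean of its probe sets. Ncoa1 had a log2 fold change of 0.24 (limma adjusted p = 0.0738, and past the threshold in 4 of 20 alternatives).

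Of 9 genes that respond to retinoic acid or act beside Stra8 in germ cells, 3 rose, 0 fell and 6 did not pass. Tgm2, the transglutaminase gene that retinoic acid induces in many cells, had 7.28, 7.18 and 8.15 on the knockout arrays, against 6.77, 6.50, 6.67 and 6.82 on the wild type arrays. Knockout 3 stood above the other knockout arrays. Tgm2 rose by 0.85 (SE 0.21, limma adjusted p = 0.0340), and its log2 fold change was 0.54 without knockout 3, with limma adjusted p = 0.0507. It stayed past the threshold in 1 of 7 runs, that without knockout 2. The germ cell and Sertoli cell transcription factor gene Dmrt1 rose by 0.35 (SE 0.08, limma adjusted p = 0.0285), and Sohlh2, a transcription factor gene of spermatogonia, by 0.37 (SE 0.10, limma adjusted p = 0.0415). With the title sets as a block their adjusted p was 0.0591 and 0.0767. Dmrt1 kept its call in 2 of 7 runs that left out 1 array, those without knockout 2 or wild type 3, and Sohlh2 in 1, that without wild type 4. Kit, a receptor gene of differentiating spermatogonia, had 7.68, 7.03 and 6.96 on the knockout arrays and 6.82, 6.55, 6.94 and 6.65 on the wild type arrays. The groups were barely apart, with knockout 1 well above the rest. Its log2 fold change was 0.48 with an SE of 0.18 (limma adjusted p = 0.0941), or 0.26 without knockout 1 and 0.27 with the mean of its probe sets, and that of the meiotic cohesin gene Rec8 was −0.25 (SE 0.09, limma adjusted p = 0.0817, and 0.0486 without wild type 3). Ccnd2, also in this list, had a log2 fold change of 0.49 with an SE of 0.16 (limma adjusted p = 0.0656). Its groups did not overlap, and with the title sets as a block its limma adjusted p was 0.0334. It passed in 6 of 20 alternatives, with log2 fold changes of 0.31 to 0.76 over all 20. Kit, Rec8 and Ccnd2 were chosen for naming after their values were seen.

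Marker genes of several somatic cell types of the testis were examined beside the members. Of the listed markers, 15 of 16 for Sertoli cells, 4 of 7 for Leydig cells and 9 of 11 for undifferentiated spermatogonia were tested. For the other cell types all listed markers were. The counts below are to be read against all genes tested, of which 9.07% rose and 7.05% fell. Of 15 Sertoli cell markers 13 rose, 0 fell and 2 did not pass, with a median log2 fold change of 0.57. Their summed linear signal ran from 19056 to 20572 on the knockout arrays, against 11589 to 14714 on the wild type arrays, and the groups did not overlap. Of 8 markers of peritubular myoid cells 3 rose, 0 fell and 5 did not pass (median 0.38, summed signal 3123 to 3366 in knockout and 2281 to 2555 in wild type). Of 4 Leydig cell markers 2 rose and 2 did not pass (median 0.75, summed signal 5271 to 6720 in knockout and 2824 to 4261 in wild type), and of 9 macrophage markers 5 rose and 4 did not pass (median 0.56, summed signal 1142 to 1727 in knockout and 828 to 1057 in wild type). The log2 fold change of Aldh1a1, 0.85, lay above that of the highest Sertoli marker, Wt1 (0.78), and below those of Mylk in myoid cells (0.92), Lyz2 in macrophages (0.87), and Star (0.93) and Hsd3b1 (0.90) in Leydig cells, of which Star and Hsd3b1 did not pass. That of Cyp26b1, 0.56, lay within the range of the Sertoli, the myoid and the macrophage markers, and just below the lowest Leydig marker, Cyp11a1 (0.58). No signal in the table was at 0, the lowest being 1.59. The part of these cells in the rises of Aldh1a1 and Cyp26b1 was not tested.

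Germ cell markers are given for comparison with Stra8, Crabp1, Rarg, Aldh1a2 and Rdh11. Their counts, too, stand beside 9.07% of all genes that rose and 7.05% that fell. For differentiating spermatogonia 2 of 6 markers rose, 0 fell and 4 did not pass (median 0.36). Singly, 5 of the 6 did not overlap between genotypes, against 28.0% of all genes. Kit, Sohlh2, Dmrt1 and Ccnd2 had a higher mean in knockout, and Dmrtb1 (log2 fold change −0.21) a lower one. Among them only Sohlh2 and Dmrt1 passed the test. The summed linear signal of the 6 markers overlapped, at 2105 to 2334 in knockout and 2211 to 2410 in wild type. Such a sum rests most on its brightest genes. Of these 6, 5 are also in the response list above, including Sohlh2 and Dmrt1, the 2 that rose, so the lists are not independent. Of 9 markers of undifferentiated spermatogonia 1 rose and 8 did not pass (median −0.07, summed signal 1320 to 1364 in knockout and 1266 to 1416 in wild type). Of 10 markers of early meiotic prophase, with Rec8 among them, 0 rose and 0 fell in limma, with 2 at an unadjusted p under 0.05 (median −0.04), and their summed signal was 8226 to 9665 in knockout and 8762 to 9277 in wild type. Of 7 markers of pachytene spermatocytes 0 rose and 3 fell, the largest fall being that of Aurkc at −0.76 (median −0.18, summed signal 17739 to 18930 in knockout and 19104 to 19889 in wild type), and of 9 spermatid markers 0 rose and 3 fell (median −0.09, summed signal 62357 to 63826 in knockout and 64295 to 67992 in wild type). The 7 endothelial markers, all below the median signal, gave 0 calls in limma and 0 at an unadjusted p under 0.05 (median 0.10, summed signal 169 to 217 in knockout and 164 to 197 in wild type). The part of these cells was likewise not tested.

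**Figure D4:**
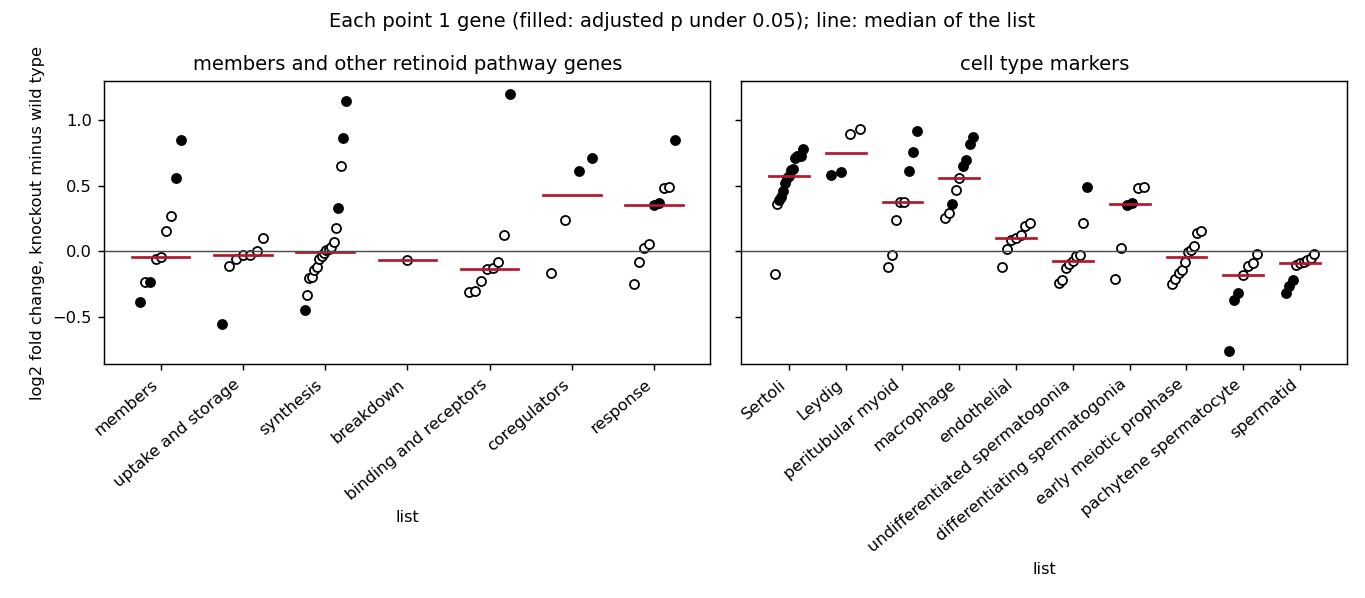
Log2 fold change, knockout minus wild type (y axis), of the members and the other retinoid pathway genes by list (left) and of cell type markers by list (right). Each point is 1 gene, filled where the adjusted p was under 0.05, and the red line is the list's median. The members lie on both sides of 0, while the Sertoli markers lie above it except Amh (−0.17).

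The genes whose signal followed each member most closely over the 7 arrays were sought among 8541 genes with an above-median signal, by Pearson's r and as a description only, since arrays of 1 genotype share that genotype's level. For Aldh1a1 these were Trmt6 and Dek (both r = 0.987), with log2 fold changes of 0.35 and 0.39. For Cyp26b1 they were Lsr (r = 0.992) and Fat1 (r = 0.987), with 0.59 and 0.77. For Rdh11 they were Lyrm1 (r = 0.995) and Pkdrej (r = 0.993), with −0.32 and −0.59, and for Stra6 they were Adam32 (r = 0.972) and Lrrc10b (r = 0.969), with −0.14 and −0.26. The nearest to the members that did not pass were Smarca4 and Tm2d2 for Aldh1a2, Ptp4a2 and Slc38a5 for Rdh10, Rnf115 and Numa1 for Stra8, Dusp7 and Lig1 for Crabp1, and Cdc42bpa and Plxnb3 for Rarg (r = 0.969 to 0.992). Among 8541 genes and over only 7 arrays, some high r is likely to arise by chance, so no link between these genes is shown.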

How the data were processed

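The authors' deposited table holds log2 signals of 45101 probe sets for 7 arrays. Per the labels' protocols, Trizol RNA was made into biotin-labelled cRNA, and the submitters' processing notes name Affymetrix Expression Console 1.4.1. Summarisation, background correction and normalization are not given in the sources used here, and no normalization was added. The log2 scale was read from the values, 1.59 to 13.92. A platform annotation table gave 1 symbol to 34958 probe sets, several to 932 and none to 9211. Each of 18194 genes was read at its brightest probe set, by mean over the arrays. Genotypes were compared with limma 3.58.1 (R 4.3.3; lmFit and eBayes, two-sided), knockout minus wild type, with Benjamini-Hochberg adjustment over all genes. The fit was also run on simulated data drawn independently for each array, which lack the shared deviations within title sets seen here. Single genes also had an exact permutation test. Arrays have no read depth, and their number limits the precision. Members, lists and tests were chosen with earlier results of these data known. All members and Phf13 are named, as are up to 3 other pathway genes per list by smallest p, any other past the threshold and, per member, the 2 genes of highest correlation among the brighter genes, without clone names. Alternatives were other normalizations, dim genes left out, other probe sets, variance models, array weights, a plain test, title-set or replicate blocks and arrays left out.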

Additional observations from a re-analysis of the deposited data

Results flagged for a closer look

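Among the 57 genes examined, 4 had a wild type array far from the other 3, and in each it was wild type 2. Its gap to the nearest array, as a share of the range of the 4 wild type arrays, was 0.931 for Rbp2, where it was the highest, 1.0 for Rbp7, highest by 0.02 log2 units, 0.840 for Ttr, highest, and 1.0 for Rdh12, lowest. Chance flags about 1 in 20 groups, a rate that need not hold for Rbp7 and Rdh12, where the other 3 wild type arrays shared 1 value. None of the 4 genes passed the test, all were dim or near the array medians, and no member is among them.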

How the results depend on the processing

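The number of genes past the threshold, 2934 in all, was 17 with a plain test per gene, 4 without knockout 3 and wild type 4 together, and 175 to 2574 with 1 array left out. The 2 members that rose became 0 with the plain test, 0 without knockout 3 and wild type 4 together, and 1 or 2 with 1 array left out. The 2 members that fell became 1 with quantile normalization, without the dimmer 50% of genes (where Stra6 is not tested), with the plain test, with the title sets as a block and with the replicate block. They became 0 without knockout 3 and wild type 4 together, and 0 to 2 with 1 array left out. The 9 other pathway genes that rose became 0 with the plain test, 0 without knockout 3 and wild type 4 together, and 1 to 8 with 1 array left out. The 2 that fell became 5 with median centring, 4 without the dimmer 50% of genes, 0 with the plain test, 0 without both arrays, and 0 to 2 with 1 array left out. The sign of the log2 fold change turned for Crabp1 (0.022) and Rarg (0.017) without knockout 3 and wild type 4 together, for Crabp1 (−0.12 to 0.02), Rarg (−0.10 to 0.033) and Rbp2 (−0.090 to 0.0067) with 1 array left out, and for Lrat with the mean of its probe sets (−0.063) and its most variable probe set (−0.23). The cause of these changes was not tested. Some of these settings also held fewer arrays or genes. For the 9 members the signs held under all other alternatives, and Aldh1a1 kept its call in 18 of 20. Deviations from the genotype means correlated at 0.182, 0.103 and −0.143 for the pairs of replicate numbers 1, 2 and 3. The pairs of numbers 1 and 2 also lie within title sets, so they cannot tell these groupings apart. Within the title sets the 4 pairs of a knockout and a wild type array correlated at 0.103 to 0.319, and with these sets as a block 2317 genes passed. With the replicate block 2294 genes passed, and 2 members rose and 1 fell. Signal over background was not known, which limits the values of Stra6, Crabp1, Rarg and the dim pathway genes.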
